A study of Bos taurus with 4 samples.

Results

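Fatty acid synthesis, desaturation and elongation were followed through 5 genes in the subcutaneous fat of Qinchuan cattle, which are a Chinese breed. The genes were FASN, THRSP, SCD, FADS2 and ELOVL5. They were chosen by name, with earlier results of these data known. The shares of all clusters given beside their calls are therefore no test of the set. Each stands for 1 UniGene cluster, a group of transcript sequences that 1 sequence represents, so the set held 5 of the 36373 clusters counted. Reads of all 5 were found in every library. Tissue came from fetuses of 200 to 250 days (ATFB) and from bulls (ATAB), heifers (ATAH) and steers, which are castrated males (ATAS), of 18 to 24 months by the labels. The labels do not give the sex of the fetuses. The samples of 5 animals per group were pooled, so each group was 1 library, and the 4 libraries were of similar depth. In the text a value in fetuses, bulls, heifers or steers is that of the 1 library of that group. There were no replicates, and every interval between 2 libraries covered counting error only.

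Long-chain fatty acids are built in the cytosol. FASN, fatty acid synthase, joins acetyl-CoA and malonyl-CoA to palmitate with NADPH, and THRSP (Spot 14) is a small protein without a known catalytic domain that is induced by thyroid hormone and promotes lipogenesis. SCD then places a double bond in the middle of palmitate or stearate and makes palmitoleate and oleate, the main monounsaturated fatty acids of beef fat. FADS2 takes the first desaturation step on the diet-derived linoleic and linolenic acids, and ELOVL5 lengthens the products of that pathway. In ruminants adipose tissue is a main site of fatty acid synthesis, and acetate from the rumen is a main source of its carbon.

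All of these genes except THRSP encode enzymes whose coding sequence shows the catalytic residues, and short stretches of it, 5′ to 3′, are given because the related genes that could share reads carry the same residues. In the desaturases and the elongase the capitals mark the histidine codons of a histidine box, which binds iron in desaturases. In FASN they mark the codon of the cysteine that holds the growing chain.
SCD, bases 598 to 642 of its sequence: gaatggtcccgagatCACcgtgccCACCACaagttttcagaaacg
SCD5, bases 666 to 710: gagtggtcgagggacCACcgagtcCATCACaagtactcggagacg
SCD, bases 1021 to 1065: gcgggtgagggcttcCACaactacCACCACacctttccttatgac
SCD5, bases 1089 to 1133: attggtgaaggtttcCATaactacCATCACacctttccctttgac
FADS2, bases 661 to 705: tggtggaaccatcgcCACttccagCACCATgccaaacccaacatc
FADS3, bases 734 to 778: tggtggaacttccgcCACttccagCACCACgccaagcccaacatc
ELOVL5, bases 551 to 595: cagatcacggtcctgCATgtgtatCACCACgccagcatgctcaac
FASN, bases 547 to 594: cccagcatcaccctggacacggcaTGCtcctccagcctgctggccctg
Of 45 bases, SCD and SCD5 differed at 12 in the first box shown and at 9 in the last, and FADS2 and FADS3 differed at 5. Over the whole coding region, SCD and SCD5 were identical at 65.1% of 1005 aligned bases, with a longest shared run of 23 bases. For FADS2 and FADS3 the identity was 73.5% of 1330 bases and the longest run 28 bases. The read counts kept only reads with a single best place, and how reads from shared runs were assigned was not tested. The stretches shown lie in the part of each sequence that is translated, which is 21.1% of the SCD sequence, 31.4% of ELOVL5, 44.7% of FADS2 and 91.7% of FASN. For THRSP, with 453 coding bases, it is 32.0%.

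SCD and FASN were among the most abundant transcripts of the adult libraries. SCD had 13802 reads in fetuses, 458399 in bulls, 437474 in heifers and 202130 in steers. That made it the cluster with the most reads in ATAH and the second in ATAB and ATAS, against place 129 in ATFB. FASN had 17352, 205568, 169830 and 76720 reads in the same order of libraries. Its place by reads was 100 in ATFB and 6, 4 and 8 in ATAB, ATAH and ATAS. The 5 genes together took 0.223% of the counted reads in fetuses, 4.63% in bulls, 4.15% in heifers and 1.90% in steers.

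On the RPKM scale, which divides reads by transcript length and library total and so allows levels of different genes to be compared, SCD was the highest of the 5 in every library. It had 177 RPKM in fetuses (95% Poisson interval 174 to 179.9), 5557 in bulls, 5493 in heifers and 2544 in steers. FASN had 138 RPKM in fetuses, 1548 in bulls, 1324 in heifers and 599.6 in steers. For both genes the fetal level lay far below the adult levels, and the steer library stood below the other adult libraries.

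THRSP covered the widest range. Its reads were 676 in fetuses, 72795 in bulls, 32093 in heifers and 13130 in steers, or 31.3 (interval 29.0 to 33.7), 3188, 1456 and 597 RPKM. In ATFB it ranked below ELOVL5 by RPKM, though their intervals overlapped. In ATAB and ATAH it ranked above FASN. Reads covered at least 98.2% of its sequence in each library, so the low fetal count was not confined to a fragment.

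ELOVL5 followed the same order at a lower level. It had 1511 reads in fetuses, 10083 in bulls, 6773 in heifers and 2680 in steers, or 34.5, 218, 152 and 60.1 RPKM. The fetal and steer intervals, 32.8 to 36.3 and 57.9 to 62.4 RPKM, did not overlap.

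FADS2 ran the other way between fetuses and adults and was the lowest of the 5 in every library. It had 788 reads in fetuses, 392 in bulls, 370 in heifers and 214 in steers, or 17.3 (16.1 to 18.5), 8.12 (7.34 to 8.97), 7.94 (7.15 to 8.79) and 4.60 (4.01 to 5.26) RPKM. The fetal library was highest and the steer library lowest, while the bull and heifer libraries did not differ beyond counting error, since the interval of ATAH over ATAB was 0.846 to 1.13. The covered share of its sequence was 97.6%, 95.5%, 90.6% and 85.5% in the same order.

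**Figure D1:**
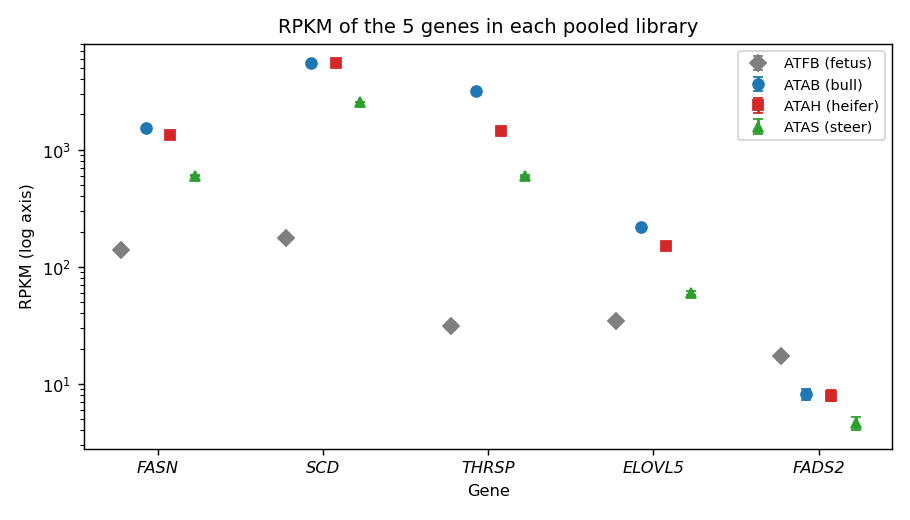
RPKM (log axis) of the 5 genes in the 4 pooled libraries, 1 point per library with exact 95% Poisson intervals, which are mostly smaller than the symbols. FASN, SCD, THRSP and ELOVL5 are lowest in ATFB and next lowest in ATAS, while FADS2 is highest in ATFB at 17.3 RPKM and lowest in ATAS at 4.60.

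The question of the fetal against adult comparisons was how the genes differ between stages. The 3 comparisons, of each adult library with ATFB, share that fetal library and are given side by side. A cluster was called at a false discovery rate (FDR) of 0.001 or less in an exact binomial test, adjusted over all clusters with a read, and an RPKM ratio that was 1 or more, up or down, on the log2 scale. Such a test compares those libraries, not the conditions.

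In ATAB against ATFB, FASN, SCD, THRSP and ELOVL5 rose and FADS2 fell, so 4 of 5 were called higher, against 9.51% of the 34096 clusters tested, and 1 lower, against 13.1%. THRSP was 102-fold higher (95% interval 94.4 to 110.0), SCD 31.4-fold (30.9 to 32.0), FASN 11.2-fold (11.0 to 11.4) and ELOVL5 6.31-fold (5.98 to 6.67). FADS2 had a ratio of 0.471 (0.416 to 0.532), and its call was lost with TMM factors, with DESeq2 size factors, without the 10 clusters of most reads in the totals and with reference genes as the scale. If a coefficient of variation of 0.4 between animals is assumed, by edgeR's exact test the calls of FASN (adjusted p = 0.0107) and ELOVL5 (adjusted p = 0.0735) were lost as well, and those of THRSP and SCD were kept. The median log2 ratio was 3.49 over the 5 genes and -0.08 over all clusters tested.

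In ATAH against ATFB, the same 4 genes were called higher, against 13.9% of 34589 clusters, and FADS2 lower, against 9.83%. THRSP was 46.5-fold higher (43.1 to 50.3), SCD 31.1-fold (30.5 to 31.6), FASN 9.59-fold (9.44 to 9.74) and ELOVL5 4.39-fold (4.15 to 4.65). The ratio of FADS2 was 0.460 (0.405 to 0.521), and its call was lost with reference genes as the scale. With the assumed coefficient of 0.4, edgeR's exact test kept THRSP and SCD and lost FASN (adjusted p = 0.0155), ELOVL5 (adjusted p = 0.159) and FADS2 (adjusted p = 0.594). The median log2 ratio of the 5 was 3.26.

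In ATAS against ATFB, 3 of 5 were called higher, against 15.5% of 34474 clusters, and FADS2 lower, against 10.5%. THRSP was 19.1-fold higher (17.7 to 20.6), SCD 14.4-fold (14.1 to 14.6) and FASN 4.34-fold (4.27 to 4.41). ELOVL5 had a ratio of 1.74 (1.63 to 1.86), under the size a call needed, and FADS2 one of 0.267 (0.228 to 0.311). With reference genes as the scale ELOVL5 was called as well. With the assumed coefficient of 0.4 only THRSP was kept in edgeR's exact test, and SCD (adjusted p = 0.00294), FASN (adjusted p = 0.144) and FADS2 (adjusted p = 0.210) were lost. FASN, SCD and THRSP, 3 of 5, were called higher in all 3 adult libraries, against 6.79% of all clusters, and FADS2, 1 of 5, lower in all 3, against 6.1%.

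Because cells of the tissue were not separated, fewer adipocytes in the fetal tissue and less of a transcript per adipocyte cannot be told apart. Of 12 adipocyte markers, 10 had a named cluster, without FABP4 and RBP4, and all 10 were called higher in ATAB and in ATAH and 8 in ATAS, each against ATFB, where the shares of all clusters were 9.51%, 13.9% and 15.5%. Their summed level was 1075 RPKM in fetuses, 5909 in bulls, 7172 in heifers and 7257 in steers, and none was at 0 reads. ADIPOQ had 261 RPKM in ATFB and 982, 1150 and 1498 RPKM in ATAB, ATAH and ATAS, and CD36 had 181, 926, 1097 and 1111 RPKM. Among the adult libraries the markers went different ways. Picked after their values were seen, LPL had 566, 506.9 and 304 RPKM in ATAB, ATAH and ATAS, LEP 128, 118 and 74.8, CIDEA 159, 164 and 41.9 and PNPLA2 597, 721 and 529.7, lowest in ATAS as FASN, SCD, THRSP and ELOVL5 were. In ATAS against ATAH, 6 of the 10 markers were lower, with a median log2 ratio of -0.17, and CIDEA was called, beside 1.48% of all clusters. LIPE, with 505, 767 and 1024 RPKM, and PLIN1, with 520.3, 834 and 1005, were highest in ATAS. In ATAS against ATAB, 6 of the 10 were higher, with a median of 0.15, and LIPE was called higher and CIDEA lower, beside 6.86% and 1.87% of all clusters.

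Set against the geometric mean of the 10 markers in place of the library totals, a scale added after the data were seen, every log2 ratio to ATFB moved by the same amount, -2.77 in bulls, -3.02 in heifers and -2.71 in steers. The distances between the 5 genes stay as they were, and a ratio smaller than that amount changes sign. THRSP stayed above ATFB, at 3.90, 2.52 and 1.54, and so did SCD, with 2.20, 1.94 and 1.13. FASN had 0.71, 0.24 and -0.59, of which none was called and the last has the opposite sign. ELOVL5 had -0.12, -0.88 and -1.91, the opposite sign in each adult library, and FADS2 had -3.86, -4.14 and -4.62. In ATAS against ATFB ELOVL5 was called lower on this scale, as were 21207 of the 34474 clusters tested. The share of adipocytes itself was not measured.

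**Figure D2:**
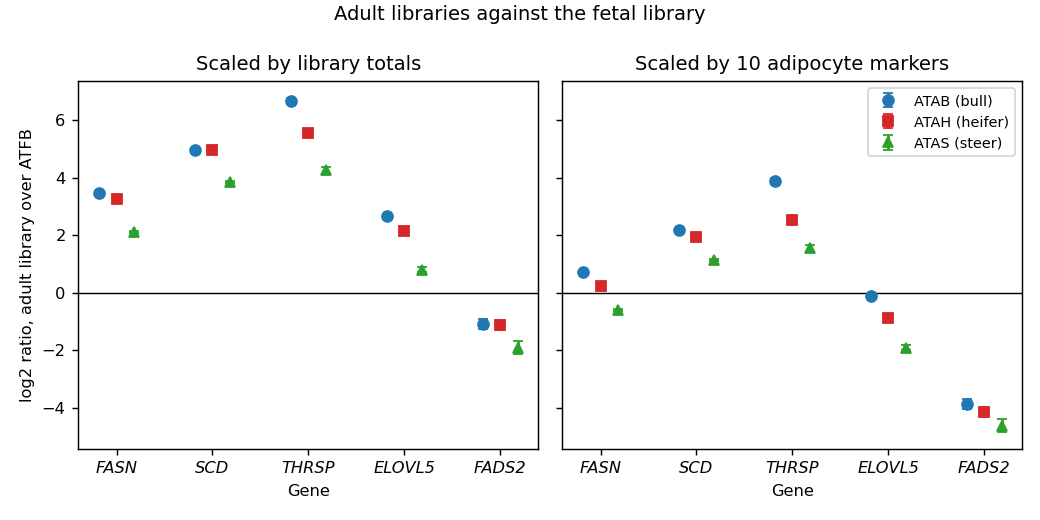
Log2 ratio of RPKM of each adult library over ATFB for the 5 genes, scaled by library totals (left) and by 10 adipocyte markers (right), with exact 95% counting intervals of the ratio by library totals. Under library totals 4 genes lie above 0, and on the marker scale THRSP and SCD lie above 0 in all 3 adult libraries and FADS2 and ELOVL5 below.

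The other marker lists moved between libraries as well, and their part in the results was not tested. Of 7 erythroid genes, 2 had a cluster, summing to 2390 RPKM in ATFB, 0.761 in ATAB and 1.54 in ATAH, with both at 0 reads in ATAS. HBG2, a fetal globin, had 24526 reads in ATFB and 8, 16 and 0 in the adult libraries, and ALAS2 had 763, 1, 1 and 0. The 6 fibroblast and matrix genes with a cluster, of 9, summed to 15493, 16598, 7605 and 8589 RPKM in ATFB, ATAB, ATAH and ATAS. Among them COL1A1 had 4167, 3412, 639 and 1035 RPKM, and SPARC 4522, 8904, 5349 and 5633. Picked after their values were seen, COL3A1 had 1980.3, 2903, 766 and 676 RPKM, DCN 3916, 1115, 755 and 1155, and DLK1 566, 0, 1.91 and 0.911. Against ATFB, 2 of the 6 were called lower in bulls, DCN and DLK1, and 5 each in heifers and steers, where 13.1%, 9.83% and 10.5% of all clusters were.

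Leukocyte genes, 6 of 6 with a cluster, summed to 299.5 RPKM in fetuses, 770 in bulls, 1038 in heifers and 1890 in steers, mostly CD74 with 206, 624, 899.7 and 1663 RPKM. CD14, second in the list by reads, had 53.1, 56.5, 54.7 and 81.4 RPKM. The 4 endothelial genes with a cluster, of 5, summed to 182, 256, 354 and 449.8 RPKM, with PECAM1 at 106, 95.9, 116 and 150.0 and VWF at 22.3, 95.8, 143 and 183. Both lists were highest in ATAS, where SCD, FASN, THRSP and ELOVL5 were lowest of the adults. Skeletal muscle genes, 6 of 8 with a cluster, summed to 30.6 to 63.2 RPKM, mostly DES at 26.6 to 61.5, with ACTA1 at 1.13 to 3.90. Liver genes, 4 of 6 with a cluster, summed to 4.23 RPKM in ATFB and 91.4 to 162 in the adults, nearly all of it TF at 2.48 and 90.8 to 161, while ALB was at 0.419 to 0.837.

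Of 7 brown fat genes, 4 had a cluster, and the defining marker UCP1 had 0, 0, 2 and 1 reads in ATFB, ATAB, ATAH and ATAS and DIO2 0, 2, 0 and 0. The sum of the list, 27.4, 160.0, 165 and 44.2 RPKM, was nearly all CIDEA. CIDEA, a lipid droplet protein that is also in the adipocyte list, had 26.0, 159, 164 and 41.9 of these, and PPARGC1A, a coactivator of mitochondrial genes, 1.41, 1.07, 1.34 and 2.26. CIDEA was thus lower in ATFB and ATAS than in ATAB and ATAH. The reference genes, 8 of 10 with a cluster, summed to between 2874 and 2972 RPKM, most of it ACTB at 1592 in ATFB and 1876 to 1924 in the adults, with EEF2 at 853 in ATFB and 537 to 623. Of the 8, 5 in ATAB, 5 in ATAH and 6 in ATAS were lower than in ATFB (log2 medians -0.53, -0.67 and -0.53), and 1, 2 and 3 were called lower, PPIA in all 3, HPRT1 in ATAH and ATAS and PGK1 in ATAS, beside 13.1%, 9.83% and 10.5% of all clusters. A scale set by the 8 genes raised every log2 ratio to ATFB by 0.30, 0.50 and 0.55.

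A test across stages can also be made with the 3 adult libraries as the only source of spread, although they differ in sex and castration and the single fetal library is then assumed to vary like them. In the edgeR quasi-likelihood test on 25584 clusters, 2 of the 5 genes passed an FDR of 0.05, both higher in the adults, against 9.83% of clusters in that direction and 8.4% in the other. SCD had a log2 difference, adult minus fetal, of 4.68 (adjusted p = 0.0250, higher in 3 of 3 adult libraries) and THRSP one of 5.86 (adjusted p = 0.0319, 3 of 3). FASN missed the threshold at 3.08 (adjusted p = 0.0523, 3 of 3), as did FADS2 at -1.33 (adjusted p = 0.0630, lower in 3 of 3) and ELOVL5 at 2.08 (adjusted p = 0.121, 3 of 3). Over the settings tried, the adjusted p of SCD, outside the DESeq2 and likelihood ratio fits, lay between 0.00513 and 0.0883 and that of THRSP between 0.00314 and 0.0422. Which of the 5 genes passed changed when an adult library was left out, and SCD no longer passed without ATAH. The share of all clusters that passed in those fits is not given.

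Among the adult libraries the question was that of sex and castration. The bull library had the highest level of FASN, THRSP and ELOVL5 and the steer library the lowest, with the heifer library between. The order ATAB, ATAH, ATAS, ATFB held for FASN, SCD, THRSP and ELOVL5, against 3.44% of the 14199 clusters with at least 100 reads in a library. For SCD the step from ATAB to ATAH was a ratio of 0.988 (0.984 to 0.993), which changed sign to a log2 ratio of 0.19 with reference genes as the scale. FADS2 descended from ATFB through ATAB and ATAH to ATAS, an order that 5.25% of those clusters had. Its step from ATAB to ATAH was within counting error. The adult part of the order, ATAB over ATAH over ATAS, held for all 5 genes and for 11.1% of those clusters.

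In ATAH against ATAB only THRSP was called, 1 of 5 lower, against 1.23% of 33887 clusters (4.14% were called higher, 5.37% in all). Its ratio was 0.457 (0.451 to 0.463), and the call was lost with reference genes as the scale, at a log2 ratio of -0.92. ELOVL5 had a ratio of 0.696 (0.675 to 0.718), FASN 0.856 (0.850 to 0.861) and FADS2 0.978 (0.846 to 1.13). The median over the 5 was -0.22 on the log2 scale, against 0.18 over all clusters tested.

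In ATAS against ATAB, 4 of 5 were called lower, against 1.87% of 33724 clusters (6.86% were called higher, 8.72% in all). THRSP was 5.34-fold lower in ATAS (5.24 to 5.44), ELOVL5 3.62-fold (3.47 to 3.78), FASN 2.58-fold (2.56 to 2.60) and SCD 2.18-fold (2.17 to 2.20). FADS2 was 1.76-fold lower (1.49 to 2.09), not a call with library totals but one with TMM factors or DESeq2 size factors, at log2 ratios of -1.11 and -1.12. The SCD call was lost with reference genes as the scale.

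In ATAS against ATAH, the same 4 of 5 were called lower, against 1.48% of 34046 clusters. ELOVL5 was 2.52-fold lower (2.41 to 2.64), THRSP 2.44-fold (2.39 to 2.49), FASN 2.21-fold (2.19 to 2.23) and SCD 2.16-fold (2.15 to 2.17). FADS2 was 1.73-fold lower (1.45 to 2.05) and not called. On the adipocyte marker scale the calls of FASN, SCD and THRSP were lost, with log2 ratios of -0.84, -0.80 and -0.98, and that of ELOVL5 remained at -1.03. If animals are assumed to vary with a coefficient of variation of 0.4, the edgeR exact test called none of the 5 between adult libraries. Unadjusted values of that test are not given, because no share of all clusters stands beside them.

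The distance between the highest and lowest adult library can be set against the 13242 clusters with at least 100 reads in an adult library, whose median log2 distance was 0.57. That of THRSP, 2.42, exceeded 98.2% of them, that of ELOVL5, 1.86, 96.1%, that of FASN, 1.37, 91.7%, and that of SCD, 1.13, 86.5%. That of FADS2, 0.82, exceeded 72.3%.

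Ratios of 2 genes within a library need no scaling, and they showed how unequally the 5 genes moved. SCD over FASN, per length, was 1.28 in fetuses (1.25 to 1.31), 3.59 in bulls (3.57 to 3.61), 4.15 in heifers (4.12 to 4.17) and 4.24 in steers (4.21 to 4.28). The main step lay between the stages, 2.80-fold from ATFB to ATAB (exact interval of the odds ratio 2.74 to 2.87), and ATAS against ATAH was 1.02-fold (1.01 to 1.03). In this ratio ATAS and ATAH were close together although the levels of both genes were lower in ATAS. From ATAB to ATAH the ratio moved 1.155-fold (1.146 to 1.164), while the level of SCD differed little.

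THRSP over FASN was 0.227 in fetuses (0.210 to 0.245), 2.06 in bulls (2.04 to 2.08), 1.10 in heifers (1.09 to 1.11) and 0.996 in steers (0.977 to 1.01). It set the bull library apart, since ATAH against ATAB was 0.534-fold (0.526 to 0.542) and ATAS against ATAH 0.906-fold (0.886 to 0.926). ELOVL5 over FASN went down from 0.250 in fetuses to 0.141 in bulls, 0.114 in heifers and 0.100 in steers. From ATFB to ATAS that was 0.401-fold (0.376 to 0.428).

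**Figure D3:**
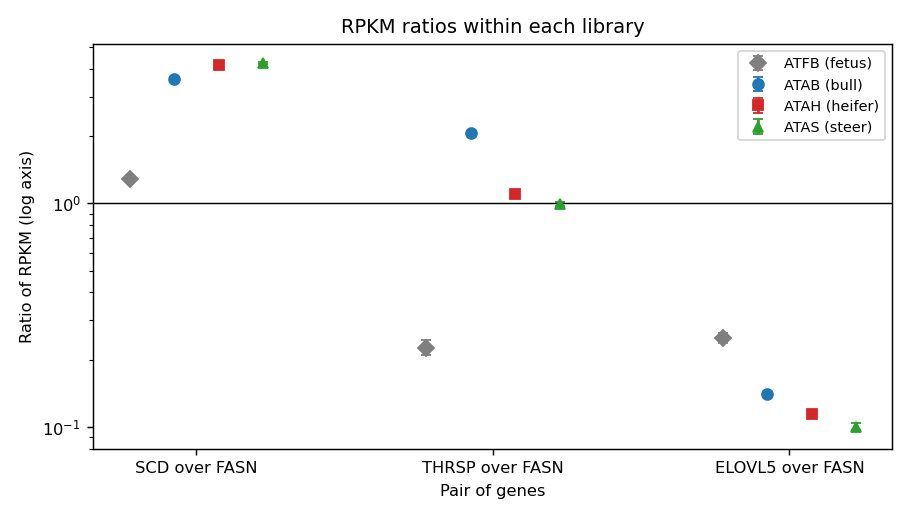
Ratio of RPKM (log axis) of SCD, THRSP and ELOVL5 over FASN within each of the 4 libraries, with exact 95% counting intervals. SCD over FASN separates ATFB at 1.28 from the adults at 3.59 to 4.24, THRSP over FASN is highest in ATAB at 2.06, and ELOVL5 over FASN is highest in ATFB at 0.250.

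The balance between the desaturases SCD and FADS2 also differed between the stages. SCD over FADS2 was 10.2 in fetuses (9.54 to 11.0), 684 in bulls (619.8 to 757), 692 in heifers (625 to 768) and 553 in steers (483 to 635). It was 66.8-fold higher in ATAB than in ATFB (59.0 to 75.7), and ATAH against ATAB, at 1.01-fold (0.875 to 1.17), did not differ beyond counting error. ELOVL5 over FADS2, the elongase and desaturase of polyunsaturated fatty acids, was 2.0 in fetuses, 26.8 in bulls, 19.1 in heifers and 13.1 in steers. The 4 libraries did not overlap in this ratio, whose interval was 1.83 to 2.18 in ATFB and 11.4 to 15.1 in ATAS.

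Each gene except FASN was then set beside a related gene of its family. FADS3, a desaturase-like gene that lies next to FADS2 in the RefSeq annotation of ARS-UCD2.0, had 272 reads in fetuses, 630 in bulls, 692 in heifers and 977 in steers, or 10.2, 22.4, 25.5 and 36.0 RPKM. FADS3 passed as higher than in ATFB in all 3 adult libraries, the reverse of its neighbour. FADS2 over FADS3 was 1.69 in fetuses (1.47 to 1.95), 0.363 in bulls (0.319 to 0.412), 0.312 in heifers (0.274 to 0.354) and 0.128 in steers (0.110 to 0.148). The ratio in ATAS was 0.0756 times that in ATFB (0.0614 to 0.0930) and 0.410 times that in ATAH (0.336 to 0.4998). FADS1, the neighbour on the other side, had no named cluster.

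SCD5, the second stearoyl-CoA desaturase, had 100 reads in fetuses, 108 in bulls, 62 in heifers and 90 in steers, or 2.50, 2.55, 1.52 and 2.21 RPKM, and was called in no comparison. SCD was 70.7 times as high in ATFB (58.1 to 87.0), 2175 times in ATAB (1802 to 2652), 3616 times in ATAH (2821 to 4717) and 1151 times in ATAS (936 to 1432). The range of SCD was therefore not shared by its relative.

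MID1IP1, the closest relative of THRSP, had 29.2 RPKM in fetuses, 109 in bulls, 131 in heifers and 17.1 in steers. Like THRSP it was called higher in ATAB and ATAH than in ATFB, but its log2 ratio in ATAS was -0.77 and not called, while that of THRSP was 4.25. In ATAS against ATAH its log2 ratio was -2.93. THRSP over MID1IP1 was 1.07 in fetuses (0.965 to 1.19), 29.3 in bulls, 11.1 in heifers and 34.8 in steers (31.8 to 38.2). ELOVL1, an elongase of saturated very long chains, had 71.0, 49.1, 44.9 and 45.7 RPKM, so that ELOVL5 over ELOVL1 was 0.487 in fetuses, 4.44 in bulls, 3.38 in heifers and 1.32 in steers.

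**Figure D4:**
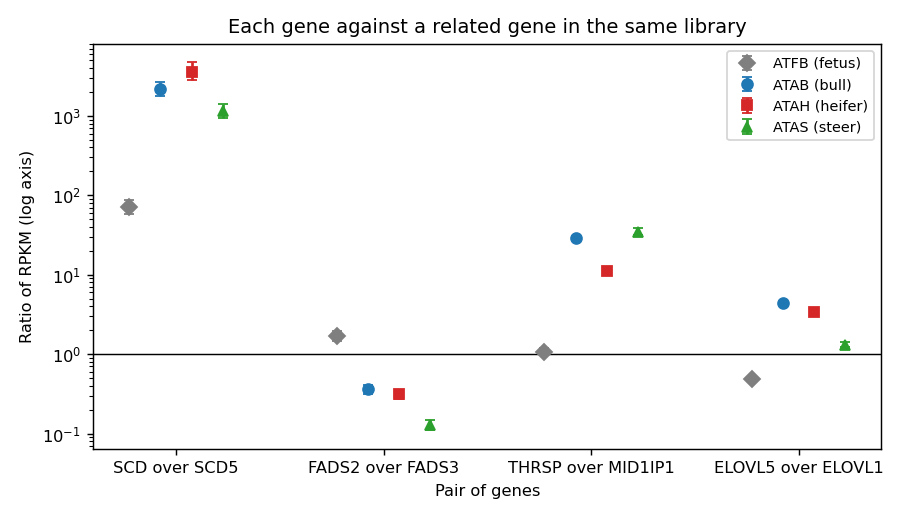
Ratio of RPKM (log axis) of each gene to a related gene within each of the 4 libraries, with exact 95% counting intervals. FADS2 over FADS3 passes from 1.69 in ATFB to 0.128 in ATAS, and THRSP over MID1IP1 is 1.07 in ATFB and 11.1 to 34.8 in the adults.

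Substrate and reducing power for FASN come from a further set of enzymes. Of 11 genes for acetyl-CoA, malonyl-CoA and NADPH, all with a cluster, 9 were called higher in bulls, 9 in heifers and 6 in steers, each against ATFB, and none lower, where 9.51%, 13.9% and 15.5% of all clusters tested were called higher. ACSS1 and ACACB were called in no comparison, and in ATAS ACLY, SLC25A1 and ACACB lay below ATFB, at log2 ratios of -0.79, -0.23 and -0.03. The median log2 ratios were 2.18, 2.06 and 1.25, against -0.08, 0.00 and 0.00 over all clusters. Their summed level was 474 RPKM in fetuses, 3328 in bulls, 2457 in heifers and 904 in steers.

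ACSS2, which activates acetate in the cytosol, had 95.3, 1183, 864 and 255 RPKM in ATFB, ATAB, ATAH and ATAS. ME1, malic enzyme, a source of NADPH, had 2.67, 68.2, 43.7 and 21.4 RPKM, and a cluster described as acetyl-CoA carboxylase, the enzyme that makes malonyl-CoA, had 7.79, 179, 120 and 64.5. Against ATFB all 3 were called higher in every adult library, and they were called lower in ATAS than in ATAB.

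Of the 11, 7 were called lower in ATAS than in ATAB and 5 lower in ATAS than in ATAH, beside 1.87% and 1.48% of all clusters, while in ATAH against ATAB none was called, beside 1.23% lower and 4.14% higher. ACLY, which makes acetyl-CoA from citrate and which was picked after its values were seen, had 47.7, 276, 277 and 27.6 RPKM. It was the gene of this list with the largest fall from ATAH to ATAS, at a log2 ratio of -3.33, and in ATAS its log2 ratio to ATFB was -0.79.

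**Figure D5:**
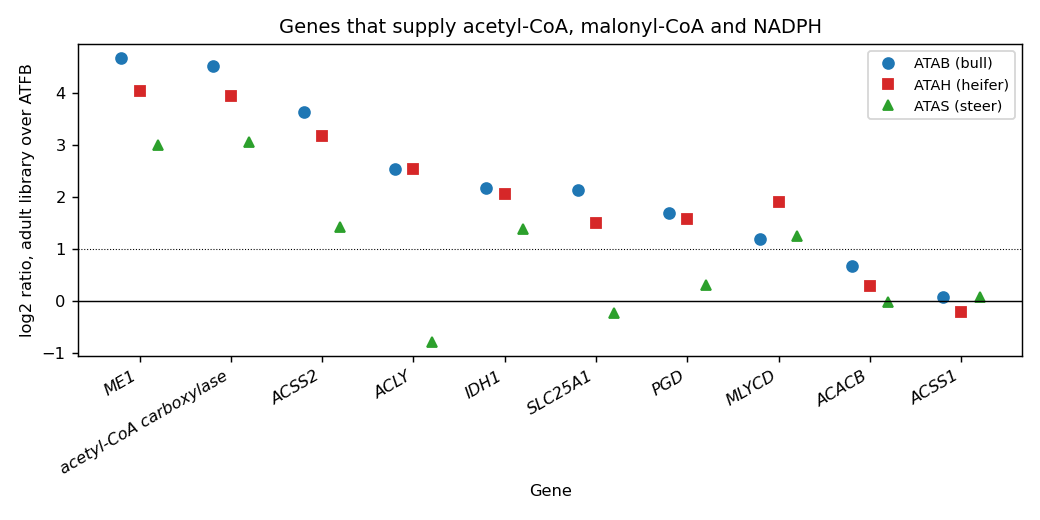
Log2 ratio of RPKM of each adult library over ATFB for genes that supply acetyl-CoA, malonyl-CoA and NADPH, with 1 point per library and the size needed for a call as a dotted line. ME1 and the acetyl-CoA carboxylase cluster are highest, and in ATAS ACLY lies at -0.79.

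Of 12 other genes of the elongation cycle, 6 had a cluster, and 1 was called higher in each adult library against ATFB and none lower, a share near the 9.51%, 13.9% and 15.5% of all clusters called higher. HACD4, a dehydratase of the cycle, was that gene, with 4.77 RPKM in ATFB and 15.4, 10.6 and 13.0 in ATAB, ATAH and ATAS. ELOVL7 had 2.61, 1.71, 2.68 and 2.20 RPKM and HACD3 8.82, 5.31, 5.62 and 8.05, neither called in any comparison. The median log2 ratios to ATFB were -0.57, -0.34 and -0.19.

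Among desaturases and their electron carriers, 9 of 12 had a cluster, and 2 were called higher in each adult library against ATFB, in ATAS a share not far from the 15.5% of all clusters (9.51% in ATAB, 13.9% in ATAH). These were FADS3 and CYB5A, cytochrome b5, which passes electrons to SCD and FADS2, with 63.7 RPKM in fetuses, 306 in bulls, 258 in heifers and 174 in steers. FADS6 was called lower in ATAH than in ATFB and higher in ATAS than in ATAH, the only other calls of the list, and it had under 100 reads in every library. DEGS1, a desaturase of sphingolipid synthesis, had 83.1, 99.5, 95.4 and 65.0 RPKM and was not called. Of mitochondrial fatty acid synthesis, 8 of 10 genes had a cluster, of which 2 were called higher in ATAB and ATAH and 1 in ATAS, each against ATFB, the last a share below the 15.5% of all clusters. CBR4 had 4.33, 15.4, 14.2 and 13.6 RPKM and MECR 4.75, 10.4, 10.7 and 7.10, while OXSM at 4.51 to 6.50 and LIAS at 7.29 to 12.4 RPKM were not called.

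Of 18 regulators of lipogenic genes, 14 had a cluster, and 4 were called higher in bulls, 5 in heifers and 2 in steers, each against ATFB, beside 9.51%, 13.9% and 15.5% of all clusters, so that the share in steers was near that of all clusters. INSIG1, which holds back SREBP processing, had 15.1, 76.3, 126 and 16.6 RPKM in ATFB, ATAB, ATAH and ATAS, so that its steer level was near the fetal level, with a log2 ratio of 0.13. SCAP, the escort of SREBP, had 13.8, 56.0, 49.7 and 38.0 RPKM. MLXIPL, which encodes the carbohydrate-responsive factor ChREBP, had 7.50, 18.9, 34.8 and 15.9 RPKM. Of the 14, 3 were called lower in ATAS than in ATAH, namely INSIG1, MID1IP1 and MLXIPL, with log2 ratios of -2.93, -2.93 and -1.13, beside 1.48% of all clusters.

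Triglyceride assembly genes, which use the fatty acids, were called higher in 4 of the 5 with a cluster, of 6, in ATAB and in ATAH and in 3 in ATAS, each against ATFB, beside 9.51%, 13.9% and 15.5% of all clusters. DGAT2, which adds the last acyl chain, had 251, 3224, 2367 and 1296 RPKM, and AGPAT2, an earlier acyltransferase of the route, 113, 1638, 1244 and 382. LPIN1, a phosphatidate phosphatase and coactivator, had the reverse order among the adults, with 7.55 RPKM in fetuses, 33.7 in bulls, 118 in heifers and 291 in steers, and was called higher in ATAS than in ATAH, at a log2 ratio of 1.31. GPD1, which makes glycerol phosphate, had 196, 567, 544 and 362. Of the acyl-CoA synthetases and binding genes, 5 of 6 had a cluster, and 2 were called higher in each adult library, beside the same shares of all clusters. ACSL1 had 41.7, 163, 187 and 96.2 RPKM and ACSL6 1.22, 2.95, 3.18 and 3.85, while ACSL3, with 25.4, 12.7, 16.2 and 10.4, was called lower in ATAS, as 10.5% of all clusters were, and ACSL5, with 28.6 to 44.1, in no comparison.

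The described clusters most like each gene were sought among 8641 with at least 100 reads in a library, by the root mean square difference of log2 RPKM after centring over the 4 libraries. For FASN these were a cluster described as a ring finger protein at 0.0433, DGAT2 at 0.119 and XPNPEP2, an aminopeptidase, at 0.188. The first had only 8 to 101 reads per library, whereas DGAT2 had 9545 to 129540. For SCD they were PAK6, a kinase, at 0.165, a cluster described by a sequence similarity family at 0.200 and UHMK1, a kinase, at 0.203, with 4 to 19 reads in ATFB.

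For THRSP the nearest were farther away, with TLR8, a receptor of RNA, at 0.360. A cluster described as similar to glycine-N-acyltransferase followed at 0.452 and an uncharacterized cluster at 0.554. These clusters had only 21, 8 and 3 reads in ATFB. For ELOVL5 the nearest were clusters described as a tetratricopeptide repeat protein at 0.176, a keratin at 0.193 and glutaminyl cyclase at 0.206. The repeat protein and the keratin had only 27 and 18 reads in ATFB. For FADS2 the nearest were NPM3, a nucleoplasmin family member, at 0.0535 and NDUFV2, a subunit of respiratory complex I, at 0.0782. A cluster described by methylmalonic aciduria, cblD type, followed at 0.0808. Among the 5 genes themselves, FASN and ELOVL5 were the closest pair at 0.504, SCD and THRSP followed at 0.629, and THRSP and FADS2 were the farthest at 3.03. These distances describe 4 libraries.

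Some clusters without a gene name resembled the 5 transcripts, and they were picked after their values were seen. The first matched the end of the FASN transcript, beyond the coding region, at 98.6% identity over 367 bases, and had 155 RPKM in fetuses, 559 in bulls, 577 in heifers and 161 in steers, so its steer level was near its fetal level while that of FASN was not. Its reads amounted to 5.01% of those of FASN in ATFB and to 1.20% to 1.94% in the adults. Another matched the end of SCD at 98.0% over 801 bases in the opposite orientation, with at most 0.0752% of the SCD reads. A further cluster matched SCD beyond its coding region at 80.0% over 100 bases and had 1252 reads in ATFB, equal to 9.07% of the SCD reads there, and 836, 696 and 794 in ATAB, ATAH and ATAS, at most 0.393%. Adding the reads of the first 2 clusters to FASN and SCD left all calls of both genes as they were.

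Another unnamed cluster matched THRSP beyond its coding region at 85.0% over 587 bases and had the opposite profile, with 2993 RPKM in fetuses, 279 in bulls, 340.3 in heifers and 659 in steers, although reads covered only 34.6% to 40.8% of its sequence. In ATFB it held 65287 reads against 676 of THRSP. An unnamed cluster also matched a coding stretch of FADS2 at 78.0% over 173 bases and had 2 reads in fetuses, 303 in bulls, 937 in heifers and 0 in steers, at least 312-fold higher in ATAH than in ATAS when 0 is taken as 3 reads. Whether reads of SCD, THRSP or FADS2 were split with these clusters was not tested.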

How the data were processed

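The reads of 4 libraries, each of 5 pooled animals, were used. According to the study's methods, poly(A) RNA was sequenced on an Illumina instrument, and the authors removed redundant and poor reads and aligned the others to the bovine genome (bosTau7) with SOAPaligner, first without mismatch. The deposited tables count reads per UniGene cluster, and how genome matches were assigned to clusters is not given in the sources used here. CASAVA is named in the submitters' processing notes. The authors deposited for each cluster the count of uniquely matched reads, the RPKM, and the percent of the sequence covered. A dash was read as 0. No strand is stated, so antisense reads cannot be told apart. Library totals were 15274529 (ATFB), 16148487 (ATAB), 15590706 (ATAH) and 15557063 (ATAS).

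Symbols came from accessions (RefSeq, ARS-UCD2.0) and descriptions in the deposited sequences, for 5061 of 36373 clusters. Of clusters with the same symbol, that with the most reads stands for the gene. Counts were compared by exact two-sided binomial tests with Benjamini-Hochberg adjustment, and ratios have Clopper-Pearson 95% intervals (SciPy 1.17.1). A count of 0 was taken as 3 reads. Intervals cover counting error only: no molecular identifiers are stated, so reads cannot be taken as separate molecules. Stages were compared on counts with edgeR 4.0.16 (quasi-likelihood, TMM, filterByExpr), with DESeq2 1.42.0 as an alternative, and ratios of 2 genes by Fisher's exact method in R 4.3.3. The tests were tried on simulated data. The data for the binomial test held no spread between animals, so they could not show how that test performs on such pools. The genes and lists were chosen with earlier results of these data known. Genes named from the pathway lists are those with at least 100 reads in a library and the 4 widest ranges of log2 RPKM. From the marker lists they are the 2 with the most reads, and for each of the 5 genes the 3 nearest profiles, with 0 reads as 0.5. Others, among them ACSS1, SLC25A1, ACACB, FADS6, UCP1, DIO2, PPIA, HPRT1 and PGK1, were named outside this rule. The values of 1 gene that this rule names are not reported here, though list counts include it.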

Additional observations from a re-analysis of the deposited data

How the results depend on the processing

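No paired analysis was possible because each group had 1 library. Of the 5 genes, the number called between 2 libraries moved by over 1.5 times in these settings, and the cause was not tested. With the edgeR exact test at an assumed coefficient of variation of 0.4, the number was 2 (ATAB) and 2 (ATAH), from 5 each, and 1 (ATAS), from 4, against ATFB, and 0 in each of the 3 adult comparisons, from 1, 4 and 4. On the adipocyte marker scale it was 3 in ATAB and 3 in ATAH against ATFB and 1 in ATAS against ATAH. In these comparisons 22578 of 34096, 22422 of 34589 and 1732 of 34046 clusters were called on that scale. The number stayed at 4 in ATAS against ATFB, with FASN lost and ELOVL5 called lower. On the reference gene scale it was 0 in ATAH against ATAB. Signs reversed on the marker scale for ELOVL5 against ATFB, at log2 ratios of -0.12 (ATAB), -0.88 (ATAH) and -1.91 (ATAS), and for FASN in ATAS, at -0.59. They reversed on the reference gene scale in ATAH against ATAB for SCD at 0.19 and FADS2 at 0.17. Both scales and the added overlapping clusters were chosen after the data were seen.

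In the edgeR stage test, 2 of the 5 genes passed. The number was 4 with library totals, 4 with ACTB scaling, 4 without the filter, 4 in the likelihood ratio test and 5 in DESeq2, and lay between 1 and 5 when an adult library was left out. Shares of all clusters that passed in these alternative stage fits are not given, so the counts are no result about the 5 genes. Scales other than the marker scale moved all log2 ratios to ATFB by between -0.27 and 0.55. Those among adults moved by between -0.30 and 0.26. The marker scale moved ratios by -3.02 to 0.31, so smaller ratios can change sign. The share of calls that were higher was 42.1% in ATAB against ATFB, but 53.2% with TMM, 29.4% with ACTB, 59.9% with reference genes and 0.611% with markers. In ATAH and ATAS against ATFB it was 58.6% and 59.6%, but 42.7% and 46.0% with ACTB, 81.7% and 83.0% with reference genes and 0.727% and 1.27% with markers. In ATAH and ATAS against ATAB it was 77.1% and 78.6%, but 48.8% and 49.2% with TMM, 48.1% and 48.5% with DESeq2 size factors and 90.1% and 91.5% with reference genes. In ATAS against ATAB it was 66.6% without the 10 clusters of most reads, in ATAH against ATAB 52.5% with markers, and in ATAS against ATAH 50.7%, but 82.3% with markers. Of all clusters, 184, 229 and 278 were called against ATFB (ATAB, ATAH, ATAS) and 13, 5 and 12 among adults under the assumed coefficient of 0.4, against 7704, 8209, 8972, 1819, 2942 and 1021. For FADS2, with 214 to 788 reads, the log2 counting interval spanned the size a call needed in ATAB against ATFB (-1.27 to -0.91), ATAH against ATFB (-1.30 to -0.94), ATAS against ATAB (-1.07 to -0.58) and ATAS against ATAH (-1.04 to -0.54). Spread between animals was not measured.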
